A study of Mus musculus with 9 samples.

Results

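Thrombomodulin (Thbd), P-selectin (Selp) and 7 further genes of coagulation, fibrinolysis and vessel-wall adhesion (Procr, F3, Tfpi, Plat, Plau, Thbs1 and Vwf) were followed across 3 mouse striatal cell lines. They are 9 of the 36410 genes listed in the RNA-seq count table, matched by symbol, and all 9 were found. Thbd and Selp were chosen because of their large increase in the HD-homo line. Their levels there are therefore given as a description, without a test. The other 7 were named for their function, with earlier results of these data known.

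The study compared poly(A) RNA from immortalized STHdh striatal cells, a cell model of Huntington disease in which a huntingtin (Htt) exon 1 sequence was knocked in. Control cells (STHdhQ7/Q7) carry 7 glutamine repeats on both alleles, HD-het cells (STHdhQ7/Q111) carry 7 on one allele and 111 on the other, and HD-homo cells (STHdhQ111/Q111) carry 111 on both. All 3 lines are labelled with the strain C57/BL6 and none received a treatment named in the labels. There are 3 libraries per line. Since only 1 line stands for each genotype, the effect of a genotype and that of its line cannot be told apart.

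The clotting cascade starts when tissue factor (F3), an integral membrane protein, binds factor VII, and it ends in thrombin and fibrin. Endothelial cells restrain it: thrombomodulin binds thrombin and, with the endothelial protein C receptor (Procr), turns it toward activating protein C, while the tissue factor pathway inhibitor (Tfpi) blocks the starting complex. Tissue-type (Plat) and urokinase-type (Plau) plasminogen activators start the removal of fibrin. P-selectin, von Willebrand factor (Vwf) and thrombospondin 1 (Thbs1) are stored in platelets or endothelial cells, and they act in adhesion. Brain cells are known to make several of these proteins, and thrombin receptors are found on neurons and glia.

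The starts of 4 of the 9 genes had an entry in the RefSeq promoter table (GRCm38.p6), Selp, Procr, F3 and Tfpi. Thbd, Plat, Plau, Thbs1 and Vwf had none. The 4 genes with an entry differed in level between the lines in unlike ways. Selp and Procr were highest in the HD-homo line, and F3 and Tfpi were highest in the HD-het line. The sequences of these 4 are shown because the other genes had no entry. Each runs 5′ to 3′ on the gene's strand up to the RefSeq start or, where the GENCODE gene model begins earlier, up to that base: Selp chr1:164115014-164115263 (plus strand), Procr chr2:155750967-155751116 (plus strand), F3 chr3:121723287-121723536 (plus strand) and Tfpi chr2:84476776-84477009 (minus strand). Capitals mark the runs of letters that were searched for.
Selp: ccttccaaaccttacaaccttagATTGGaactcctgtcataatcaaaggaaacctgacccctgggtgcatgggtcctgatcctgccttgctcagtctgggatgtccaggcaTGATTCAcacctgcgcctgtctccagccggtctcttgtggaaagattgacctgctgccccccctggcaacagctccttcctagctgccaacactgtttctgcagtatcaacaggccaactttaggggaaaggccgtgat
Procr: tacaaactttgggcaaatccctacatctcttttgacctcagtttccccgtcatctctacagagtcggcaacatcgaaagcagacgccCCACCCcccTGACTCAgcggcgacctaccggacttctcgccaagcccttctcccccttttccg
F3: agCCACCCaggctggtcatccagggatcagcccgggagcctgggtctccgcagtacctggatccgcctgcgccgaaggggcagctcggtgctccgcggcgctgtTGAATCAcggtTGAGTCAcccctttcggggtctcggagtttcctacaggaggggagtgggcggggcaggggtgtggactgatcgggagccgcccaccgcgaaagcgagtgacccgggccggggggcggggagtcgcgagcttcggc
Tfpi: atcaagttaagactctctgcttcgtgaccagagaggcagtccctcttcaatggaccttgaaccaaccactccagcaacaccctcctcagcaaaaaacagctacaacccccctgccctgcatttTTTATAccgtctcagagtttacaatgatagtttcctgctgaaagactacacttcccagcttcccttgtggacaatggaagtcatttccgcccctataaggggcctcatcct
In 250 bases before the start, on both strands, 8 motifs were sought: TATAAA, the AP-1 letters TGANTCA, the interferon response letters GAAANNGAAA, the STAT letters TTCNNNGAA, the NF-kappaB motif, the Kruppel-like factor letters CCACCC, the letters CCAAT and the ETS letters CCGGAA. The letters TGANTCA, which read the same on both strands, occurred in the windows of Selp, Procr and F3 and in 6.7% of all 32851 windows of this length. They lay 139 to 133 bases before the RefSeq start in Selp and 154 to 148 bases before it in Procr. F3 held them at 2 places, 146 to 140 and 135 to 129 bases before the RefSeq start. The sequences shown for Procr and Tfpi end short of the RefSeq start, so these distances do not count from their last base. CCACCC, present in 28.1% of all windows, occurred in Procr and F3. CCAAT, present in 33.8%, was found on the minus strand of Selp as ATTGG, and TATAAA, present in 12.4%, on the minus strand of the upstream Tfpi window as TTTATA. A second Tfpi window in the table held none of the 8. No motif overlapped another in these windows, and a run of letters is not by itself a binding site.

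The libraries held 29507665 to 41197931 counted reads, and edgeR's filter left 13508 genes for testing. Of the 9 genes, 8 passed it. Thbd and Selp passed only through the HD-homo libraries and Tfpi only through the HD-het libraries, while Vwf did not pass. A count of 3, taken as the smallest that shows a gene, equals 0.0710 to 0.101 normalized counts per megaread (CPM), a limit that covers counting error only. Over all tested genes, the median log2 fold change was 0.00772 for HD-homo against control, 0.0251 for HD-het against control and 0.00169 for HD-homo against HD-het. In these bulk libraries, a smaller share of cells expressing a gene cannot be told apart from less RNA per cell.

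**Figure D1:**
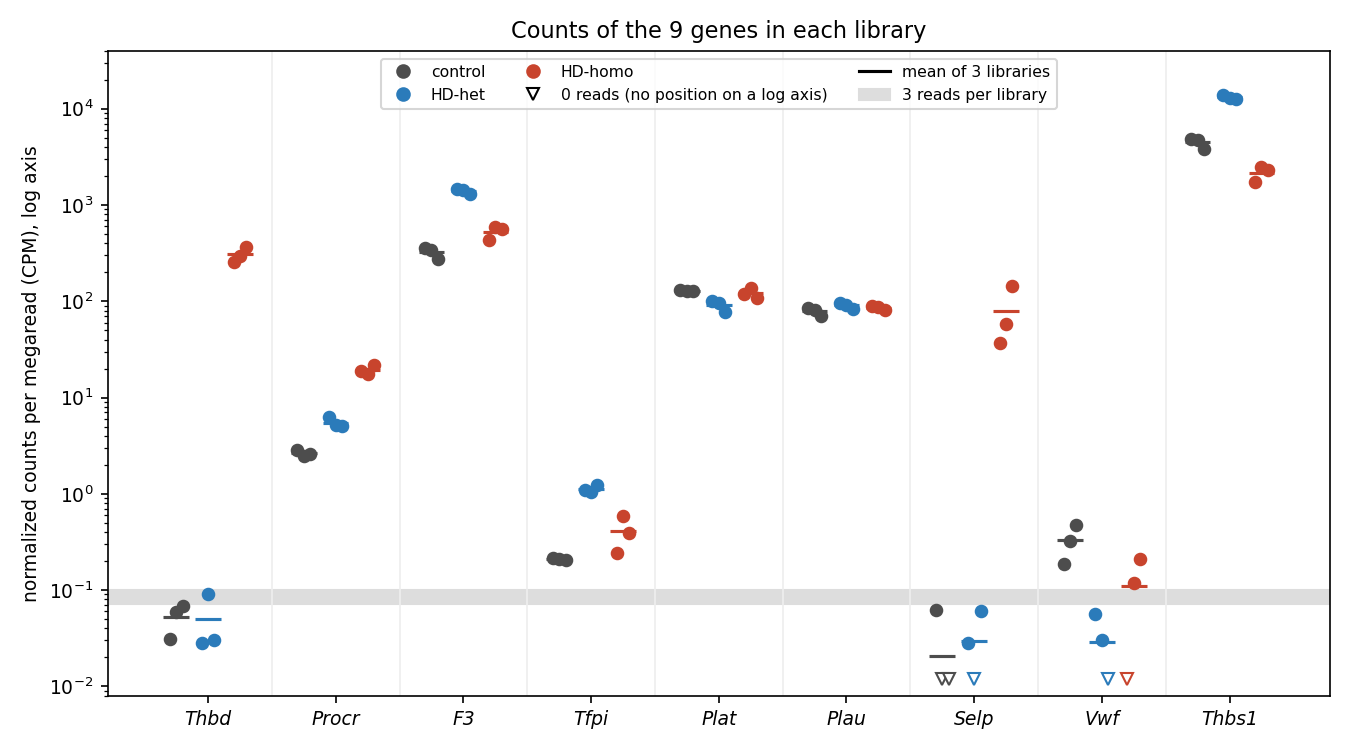
Normalized CPM (log axis) of the 9 genes in each of the 9 libraries, with the 3 libraries of each line in 1 colour, a line at their mean, open triangles for 0 reads and a grey band at 3 reads. Thbd and Selp lie in or below the band in control and HD-het cells and far above it in the HD-homo line, while Plat and Plau differ little between the lines.

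Thrombomodulin mRNA was close to absent in 2 of the lines and abundant in the third. Thbd, which has a single exon of 3723 bases (chr2:148404466-148408188, minus strand, GRCm38), was covered by 1, 2 and 2 reads in the control libraries and by 1, 3 and 1 in the HD-het libraries. The HD-homo libraries held 8422, 12339 and 12360 reads, which is 258, 292 and 369 CPM (mean 306 ± 56.6, SD, n = 3). No control or HD-het library exceeded the floor of 3 reads, so a fold between those lines is not given. The ratio of summed normalized counts was 5828 for HD-homo over control cells (95% counting interval 2497 to 17950.4) and 6213 over HD-het cells (2662 to 19137). Among the 13508 tested genes, Thbd ranked 2 by its fitted increase over control cells and 4 by that over HD-het cells. Per kilobase of exon, its level in the HD-homo line was 82.3 ± 15.2 CPM (SD, n = 3), rank 547 of the 13120 tested genes with a GENCODE length.

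The endothelial protein C receptor, which presents protein C to the thrombin-thrombomodulin complex, was also highest in the HD-homo line, at a far lower level. Procr (chr2:155751117-155755471, plus strand) had 2.83, 2.50 and 2.60 CPM in control cells, 6.29, 5.21 and 5.00 CPM in the HD-het line and 18.9, 17.5 and 21.9 CPM in the HD-homo line. The 3 lines did not overlap. In contrast to Thbd, Procr had at least 77 reads in each library. It was 7.34-fold higher in the HD-homo than in the control line (log2 fold change 2.87, SE 0.131, adjusted p = 9.2e-09, edgeR quasi-likelihood test with Benjamini-Hochberg adjustment). The HD-het line lay between, 2.08-fold above control cells (adjusted p = 4.4e-05) and 3.53-fold below HD-homo cells (adjusted p = 1.4e-07), again by edgeR. Per kilobase, Procr reached 9.56 ± 1.10 CPM in the HD-homo line (SD, n = 3), rank 5032 of 13120. Protein C itself (Proc), its ligand, had at most 3 reads in any library, and prothrombin (F2) had at most 1 read in any library.

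Tissue factor, the initiator of the cascade, was highest in the HD-het line. F3 (chr3:121723537-121735048, plus strand) had 354, 345 and 273 CPM in control cells, 1457, 1416 and 1290.5 CPM in the HD-het line and 429, 586 and 561 CPM in the HD-homo line. All HD-het libraries lay above all others, and the HD-homo libraries lay above the control libraries. The HD-het line was 4.28-fold above control cells (log2 fold change 2.10, SE 0.128, adjusted p = 1.6e-07, edgeR). HD-homo cells were 1.62-fold above control cells (log2 fold change 0.70, SE 0.124, adjusted p = 5.6e-04) and 2.64-fold below HD-het cells (log2 fold change -1.40, adjusted p = 1.6e-06). Per kilobase, F3 ranked 31 of 13120 tested genes in the HD-het line, with 549 ± 34.3 CPM (SD, n = 3), 155 in the HD-homo line and 303 in control cells.

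Its inhibitor was found at a trace level. Tfpi (chr2:84432855-84476775, minus strand) had 7, 7 and 6 reads in control libraries, 39, 34 and 41 in HD-het libraries and 8, 25 and 13 in HD-homo libraries. The order of the lines was that of F3, with means of 0.210, 1.12 and 0.408 CPM in control cells and the HD-het and HD-homo lines. Tfpi was 5.35-fold higher in the HD-het than in the control line (log2 fold change 2.40, SE 0.313) and 2.75-fold lower in the HD-homo than in the HD-het line (log2 fold change -1.41, SE 0.269). No p is given for these comparisons, since the HD-het libraries were those that kept Tfpi in the test. The higher level in HD-homo than control cells (log2 fold change 0.99, SE 0.36, adjusted p = 0.035) did not pass when any 1 control library was left out (adjusted p = 0.078 to 0.087), without HD-homo replicate 2 (log2 fold change 0.59, adjusted p = 0.25) or 3 (adjusted p = 0.05), or in DESeq2 (adjusted p = 0.094). Within a library, where the scaling to depth cancels, the ratio of F3 to Tfpi reads per kilobase was 3335 ± 369 in control cells, 2697 ± 370 in the HD-het line and 3018 ± 828 in the HD-homo line (SD, n = 3 each). The lines overlapped in this ratio, and the log2 difference was -0.31 for HD-het minus control (p = 0.2, two-sided exact permutation test, smallest possible p 0.1, adjusted p = 0.45 over 9 ratio tests) and -0.18 for HD-homo minus control (exact p = 0.7).

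The plasminogen activators differed far less between the lines than the genes above. Plat, the tissue-type activator (chr8:22757727-22782844, plus strand), had 130.4, 129 and 128 CPM in control cells, 100.5, 96.8 and 77.2 CPM in the HD-het line and 119.5, 137 and 108 CPM in the HD-homo line. The HD-het libraries lay below all others, and the control and HD-homo libraries overlapped. Plat was 1.41-fold lower in the HD-het than in the control line (log2 fold change -0.50, SE 0.103, adjusted p = 0.0014, edgeR) and 1.33-fold higher in the HD-homo than in the HD-het line (adjusted p = 0.0039). HD-homo and control cells differed by -0.09 on the log2 scale (SE 0.103, adjusted p = 0.49).

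Plau, the urokinase-type activator (chr14:20836660-20843385, plus strand), had 85.0, 81.3 and 71.1 CPM in control cells, 95.6, 92.0 and 83.9 CPM in the HD-het line and 88.4, 86.7 and 82.0 CPM in the HD-homo line. Every line overlapped with every other. The difference between HD-het and control cells was small (log2 fold change 0.19, SE 0.076, adjusted p = 0.042, edgeR) and ended in 7 of the 16 alternatives, among them without control replicate 2 or 3, HD-het replicate 1 or 2, or HD-homo replicate 1 (adjusted p = 0.051 to 0.17). The comparisons of HD-homo with control cells (log2 fold change 0.12, adjusted p = 0.21) and with HD-het cells (-0.08, adjusted p = 0.37) did not pass. The ratio of Plat to Plau within a library was 0.622 ± 0.0531 in control cells, 0.382 ± 0.0288 in the HD-het line and 0.538 ± 0.0541 in the HD-homo line (SD, n = 3 each). With the longest transcript as length in place of all exons, it was 0.951, 0.584 and 0.821 in the same order. HD-het libraries did not overlap with either other line in this ratio (exact permutation p = 0.1 in each comparison, the smallest that 3 libraries against 3 can give, adjusted p = 0.45).

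Plasminogen (Plg), the substrate of both activators, had 0 reads in all libraries. The urokinase receptor (Plaur) did not pass in any comparison, with means of 253, 249.8 and 268 CPM in control cells and the HD-het and HD-homo lines and log2 fold changes of 0.08 for HD-homo and -0.02 for HD-het against control. For Plau to Plaur the ratios were 0.346 ± 0.0224, 0.403 ± 0.0501 and 0.361 ± 0.0642 in control cells and the HD-het and HD-homo lines, and all 3 lines overlapped.

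**Figure D2:**
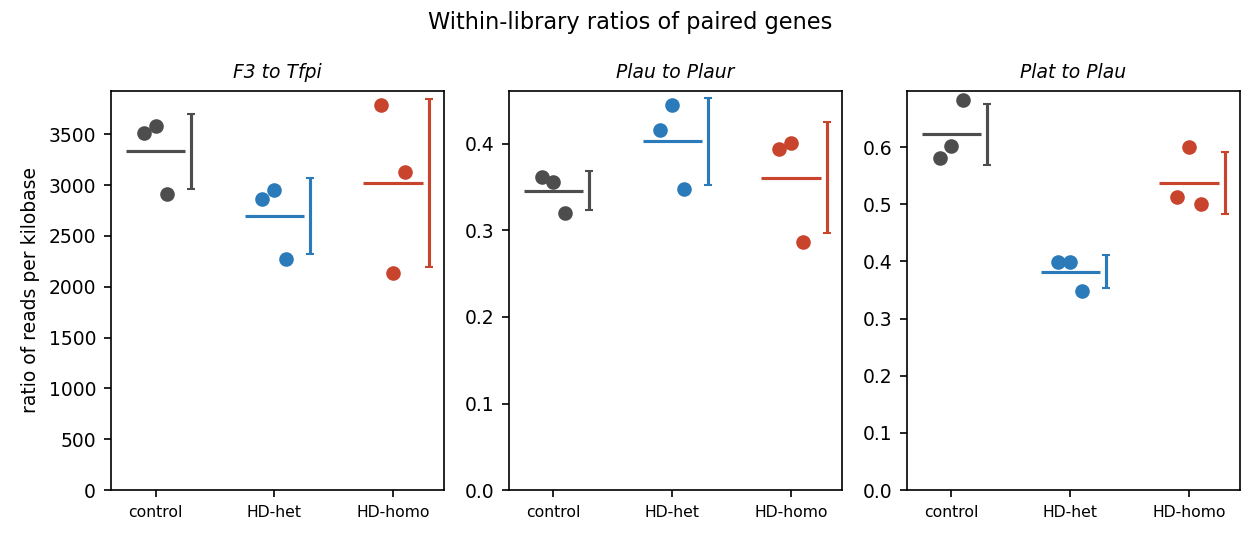
Ratio of reads per kilobase of 2 genes in each library (linear axes from 0), for F3 to Tfpi, Plau to Plaur and Plat to Plau. Points are the 3 libraries of each line, horizontal lines the mean and vertical bars the SD. The HD-het libraries stand below the others for Plat to Plau, and the lines overlap for the other ratios.

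P-selectin, which tethers leukocytes to activated endothelium and platelets, followed the pattern of Thbd but was less even among the HD-homo libraries. Selp (chr1:164115264-164150026, plus strand) had 2, 0 and 0 reads in control libraries and 1, 0 and 2 in HD-het libraries. The HD-homo libraries held 1209, 2474 and 4838 reads, or 37.1, 58.6 and 144 CPM (mean 80.0 ± 56.7, SD, n = 3). The highest HD-homo library was 3.89 times the lowest, against 1.43 times for Thbd, and without HD-homo replicate 3 the mean was 47.8 CPM. Summed normalized counts were 3748 times those of control cells (95% counting interval 1037 to 30957) and 2664 times those of HD-het cells (911 to 12921), with rank 4 by the fitted increase over control cells and rank 7 over HD-het cells. Per kilobase, Selp reached 18.1 ± 12.9 CPM, rank 3053 of 13120.

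E-selectin was at a few reads in all lines. Its gene Sele had 12, 12 and 6 reads in control libraries, 2, 0 and 2 in HD-het libraries and 13, 10 and 23 in HD-homo libraries. HD-homo and control cells differed by 0.45 on the log2 scale (SE 0.449, adjusted p = 0.41, edgeR). Sele was lower in the HD-het than in the control line, with a ratio of summed counts of 0.125 (95% counting interval 0.0320 to 0.355). It was higher in the HD-homo than in the HD-het line (ratio 10.8, 95% counting interval 3.94 to 41.3). No p is given for these comparisons with HD-het, since Sele passed the filter only through control and HD-homo libraries. The selectin ligand gene Selplg had at most 6 reads in any library.

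Von Willebrand factor, which binds platelets to a damaged vessel wall and is stored beside P-selectin, was near the floor throughout. Vwf (chr6:125546774-125686679, plus strand, 52 exons) had 6, 11 and 14 reads in control libraries, 2, 1 and 0 in HD-het libraries and 0, 5 and 7 in HD-homo libraries. HD-het libraries lay below all control libraries. The ratio of HD-het to control cells was 0.0908 (95% counting interval 0.0178 to 0.291), and the difference in mean CPM gave p = 0.1, the smallest possible, in a two-sided exact permutation test. For HD-homo against control cells the exact permutation p was 0.2, and for HD-homo against HD-het cells it was 0.4. Without the filter, edgeR gave adjusted p values of 0.0046, 0.071 and 0.16 in the same order.

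Thrombospondin 1, an adhesive glycoprotein of platelet granules and matrix, was per kilobase the most abundant of the 9 genes and changed in opposite directions in the HD lines. Thbs1 (chr2:118111876-118127133, plus strand) had 4893, 4685 and 3812 CPM in control cells, 13721, 13073 and 12556 CPM in the HD-het line and 1748, 2456 and 2290.3 CPM in the HD-homo line. The 3 lines did not overlap. It was 2.94-fold higher in the HD-het than in the control line (log2 fold change 1.56, SE 0.131, adjusted p = 1.6e-06, edgeR) and 2.06-fold lower in the HD-homo than in the control line (log2 fold change -1.04, SE 0.129, adjusted p = 3.7e-05). HD-homo lay 6.06-fold below HD-het cells (log2 fold change -2.60, SE 0.136, adjusted p = 2e-08). Thbs1 had the highest read count of all genes in each of the 3 HD-het libraries and took 1.3% of their reads on average, against 0.446% in control and 0.219% in HD-homo libraries. Per kilobase it ranked 3 of 13120 in the HD-het line, 22 in control cells and 70 in the HD-homo line.

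Counted over the 7 genes not chosen for their level, of which 6 were tested, HD-homo against control gave 3 higher (Procr, F3 and Tfpi) and 1 lower (Thbs1), beside 29.6% higher and 28.9% lower among all tested genes. HD-het against control gave 5 higher, Tfpi among them, and 1 lower (Plat), beside 33.8% and 31.4%. HD-homo against HD-het gave 2 higher (Procr and Plat) and 3 lower (F3, Tfpi and Thbs1), beside 36.0% and 35.6%. With so many genes called throughout and Tfpi kept by the filter only through HD-het, these counts say nothing particular about the set. The comparisons against control share the control libraries.

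**Figure D3:**
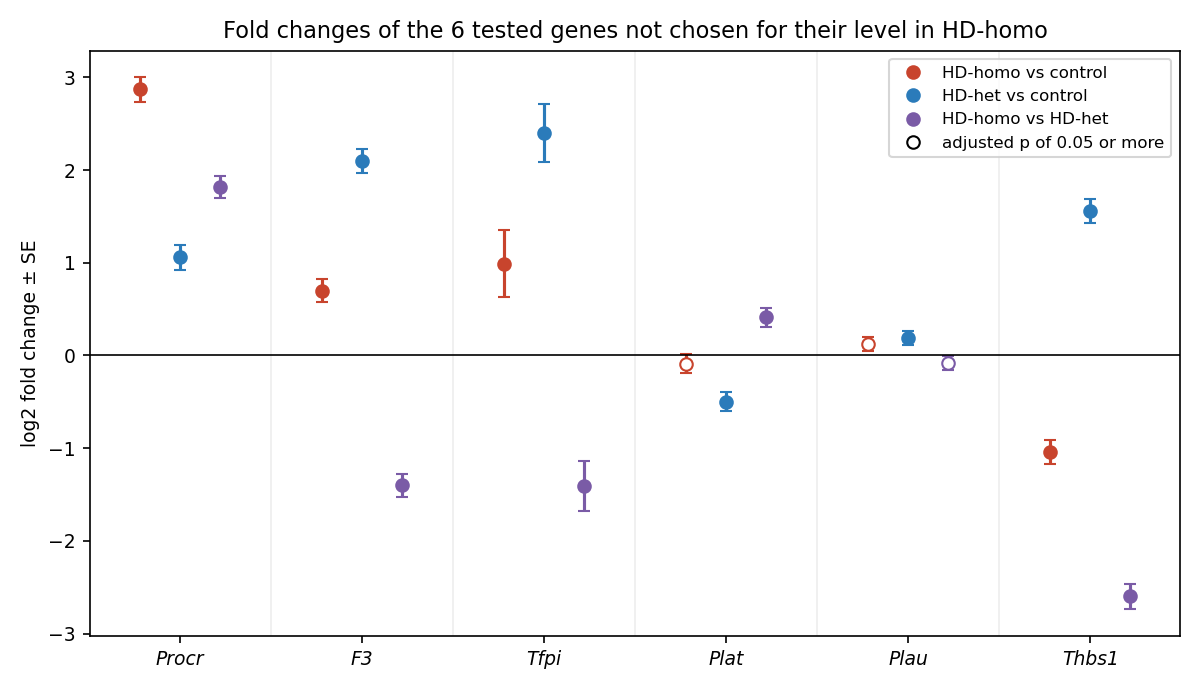
Log2 fold change with its SE for the 6 tested genes other than Thbd and Selp in the 3 comparisons between lines, with open circles where the adjusted p was 0.05 or more. Filled circles of Tfpi in the comparisons with HD-het are not read as tests, since only the HD-het libraries kept Tfpi in the test. Procr is highest in the HD-homo line, F3, Tfpi and Thbs1 are highest in the HD-het line, and values for Plat and Plau lie between -0.50 and 0.41.

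A wider list of 52 related genes was read in the same way, and 23 of them passed the filter. Of these 23, 10 were higher and 7 lower in the HD-homo than in the control line (43.5% and 30.4%, beside 29.6% and 28.9% of all tested genes). In the HD-het against the control line, 10 were higher and 6 lower (43.5% and 26.1%, beside 33.8% and 31.4%), and in the HD-homo against the HD-het line 9 were higher and 9 lower (39.1% each, beside 36.0% and 35.6%). Their median log2 fold changes were 0.18, 0.07 and 0.00 in that order, against the medians of all tested genes given above. The called genes include F5, F2rl2 and Sele, each kept by the filter only through the lines where it was higher. With so many genes called throughout, the counts of calls say nothing particular about the list. Most clotting factors were at a few reads or none: of 15 listed, 2 passed the filter, and the fibrinogen genes Fga, Fgb and Fgg had 0 reads in all libraries. Factor V (F5), the cofactor that activated protein C cleaves, had 3, 1 and 1 reads in control, 0, 1 and 0 in HD-het and 23, 31 and 39 in HD-homo libraries, which is 16.4 times control cells in summed counts (95% counting interval 6.77 to 51.6). No p is given, since F5 passed the filter only through the HD-homo libraries. Factor VIII (F8), the cofactor of factor IX, was 2.50-fold higher in HD-homo (adjusted p = 9.8e-04) and 2.51-fold higher in HD-het (adjusted p = 8.2e-04) than in control cells.

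The thrombin receptors, through which thrombin acts on cells, and their relatives differed by member. F2r, the main thrombin receptor, had 675 ± 69.9 CPM in control, 709 ± 12.5 in HD-het and 156 ± 31.7 in the HD-homo line (SD, n = 3 each), a 4.33-fold lower level in the HD-homo than in the control line (log2 fold change -2.11, SE 0.131, adjusted p = 1.2e-07, edgeR). F2rl1, a receptor cut by trypsin-like proteases, was 16.5-fold higher in HD-het (adjusted p = 2e-06) and 2.81-fold higher in the HD-homo than in the control line (adjusted p = 0.0035). Its HD-homo libraries were uneven, with 534, 738 and 169 reads. F2rl2 had 14, 10 and 12 reads in control, 17, 26 and 36 in HD-het and 5, 5 and 5 in HD-homo libraries. It was lower in HD-homo (log2 fold change -1.42, adjusted p = 0.015) and higher in the HD-het than in the control line (log2 fold change 1.04). No p is given for the latter, since F2rl2 passed the filter only through the HD-het libraries. The call in HD-homo ended without control replicate 1 (adjusted p = 0.051) or HD-homo replicate 2 (0.052). F2rl3 did not pass the filter, with 0 to 9 reads.

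Among the anticoagulants, protein S (Pros1), the cofactor of activated protein C, was 4.79-fold higher in the HD-homo than in the control line (60.2 ± 8.93 against 12.6 ± 1.08 CPM, SD, n = 3 each, adjusted p = 1.9e-08, edgeR) and 4.57-fold higher than in the HD-het line (adjusted p = 1.7e-08). HD-het and control cells differed by 0.07 on the log2 scale (adjusted p = 0.62). Annexin A5 (Anxa5), which shields anionic phospholipid, was lower in HD-het (log2 fold change -0.40, adjusted p = 1.7e-04) and by less in the HD-homo than in the control line (-0.19, adjusted p = 0.023). The second of these calls ended without control replicate 3 (adjusted p = 0.079) or HD-homo replicate 1 (0.089). In the vitamin K cycle, which readies protein C and protein S for membrane binding, Vkorc1 was 3.04-fold higher in HD-het (adjusted p = 1.1e-07) and 1.79-fold higher in HD-homo (adjusted p = 1.6e-05) than in control cells. Vkorc1l1 was 1.25-fold higher in the HD-homo than in the HD-het line (adjusted p = 5.7e-04).

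In fibrinolysis, 8 of 11 listed genes were tested. Serpine2 (protease nexin 1), an inhibitor of thrombin and of both plasminogen activators, was 48.7-fold higher in the HD-het than in the control line (log2 fold change 5.60, SE 0.205, adjusted p = 4.1e-09, edgeR), and 2.59-fold higher in the HD-homo line (adjusted p = 2.9e-04). S100a10, which with annexin A2 holds plasminogen at the cell surface, was 2.18-fold lower in the HD-het than in the control line (adjusted p = 5.4e-07), and Anxa2 was 1.45-fold lower (adjusted p = 2.4e-05). Anxa2 was 1.20-fold higher in the HD-homo than in the control line (adjusted p = 0.0043). The clearance receptor Lrp1, which takes up protease-inhibitor complexes, was 1.74-fold lower in HD-homo (adjusted p = 2.8e-05) and 1.24-fold higher in the HD-het than in the control line (adjusted p = 0.014, or 0.06 without HD-het replicate 1). Of the other thrombospondins, Thbs2 was 2.38-fold lower in HD-het (adjusted p = 1e-04) and 1.43-fold higher in the HD-homo than in the control line (adjusted p = 0.026). The latter call ended when any 1 control library or HD-homo replicate 1 was left out (adjusted p = 0.056 to 0.074) and in DESeq2 (0.064). Thbs3 was lower in both, with log2 fold changes of -0.56 in HD-homo (adjusted p = 5.3e-05) and -0.66 in the HD-het line (adjusted p = 1.3e-05).

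**Figure D4:**
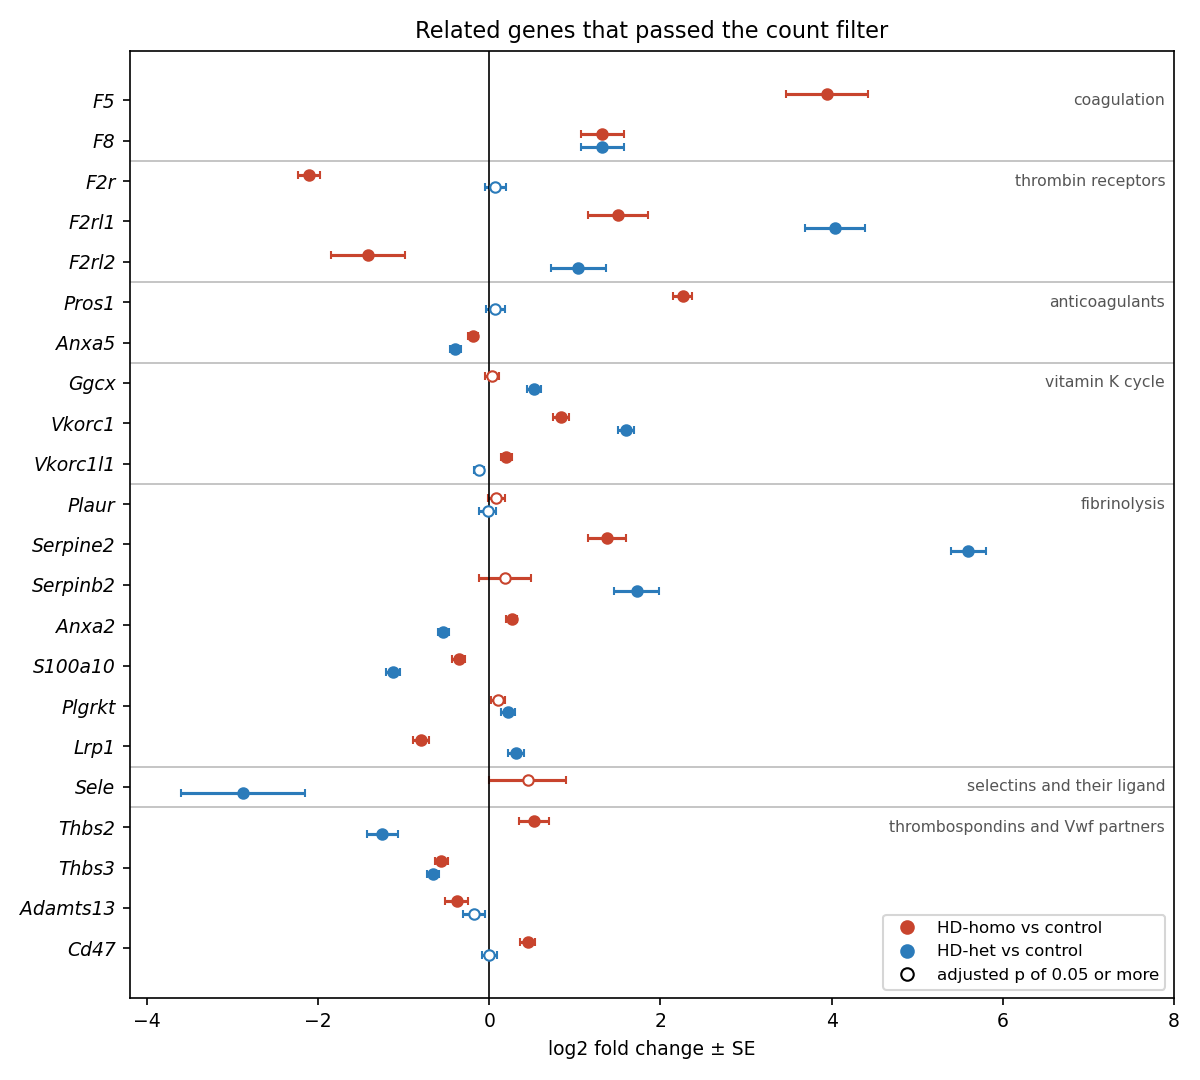
Log2 fold change with its SE against control cells for 22 of the 23 related genes that passed the filter, in HD-homo and HD-het cells, grouped by function, with open circles where the adjusted p was 0.05 or more. Filled circles of F5 in HD-homo and of Sele and F2rl2 in HD-het cells are not read as tests. The filter kept each of these genes only through the lines where it was higher. F5 has no HD-het point because HD-het and control libraries were at or under 3 reads. Serpine2 and F2rl1 have the highest HD-het values, 5.60 and 4.04, and F2r the lowest HD-homo value, -2.11.

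Markers of the cell types in which these genes are best known were read in the same libraries. Of 16 endothelial markers, 5 passed the filter, Tie1, Emcn, Cldn5, Robo4 and Sox17 had 0 reads in all libraries, and Pecam1 had at most 6 reads and Cdh5 at most 16. The summed endothelial level was 173 to 181 CPM in control, 179 to 196 in HD-het and 16.9 to 22.3 in HD-homo libraries, most of it Flt1. Without Flt1 it was 25.4 to 28.3, 4.94 to 5.70 and 6.62 to 7.19 CPM. Most of the control level left was Ptprb (mean 22.1 CPM, against 0.474 in the HD-het line and 0.0362 in the HD-homo line). Against control cells, the HD-homo line had 1 of the 5 tested markers higher and 2 lower (Flt1 and Ptprb). The higher one was Egfl7 (5.04 against 3.81 CPM, adjusted p = 0.021, edgeR). Of the untested markers, Erg (34 against 1 summed reads) and Tek (39 against 4) were also higher, while Nos3 was lower (5 against 16). Of 12 platelet and megakaryocyte markers, 4 passed the filter, and Gp9, Treml1 and Clec1b had 0 reads in all libraries. Their sum was 8.66 to 9.64 CPM in control, 11.2 to 13.2 in HD-het and 258 to 530.5 in HD-homo libraries, and without the platelet chemokine Ppbp it was 8.59 to 9.40, 11.2 to 13.1 and 17.1 to 24.1. Itga2b and Gp1bb were 2.80-fold and 3.20-fold higher in the HD-homo than in the control line (adjusted p = 2.3e-04 and 1.3e-06, edgeR). Tubb1 did not pass in that comparison (log2 fold change -0.13, adjusted p = 0.49). The part of such cells in the levels of Thbd and Selp was not tested. Of 9 markers of striatal projection neurons, the main neurons of the striatum, 4 passed the filter, the sum lay between 1.64 and 4.56 CPM in all libraries, and the dopamine receptor Drd1 had 0 reads in all 9.

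The 5 tested genes nearest to Thbd in log2 CPM over the 9 libraries were Ppbp (Euclidean distance 0.844), Sim2 (2.00), Scn3a (2.74), Slc43a3 (2.97) and Selp itself (3.13). Ppbp had 2 to 10 reads in control libraries, at most 3 in HD-het libraries and 7630 to 17213 in HD-homo libraries. For Selp they were Scn3a (1.08), Slc43a3 (1.28), Ccl5 (1.41), Cyp1b1 (1.55) and Eps8l2 (1.59). Scn3a, a sodium channel subunit, had at most 3 reads in control and HD-het libraries and 1854 to 3755 in HD-homo libraries. The likeness is a description over the samples that chose Thbd and Selp. It depended on the measure, since with Pearson's r in place of distance 1 of the 5 genes for Thbd and 0 of the 5 for Selp was named again.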

How the data were processed

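Poly(A) RNA of 3 striatal lines was sequenced as strand-specific libraries, and the authors deposited raw read counts per gene symbol for 9 libraries, without normalization. The submitters' processing notes name cutadapt, Bowtie 1.1.2, RSEM 1.3.0, DESeq2 and the builds GRCm38.p5 and mm10, without their roles. Counts are whole numbers, and rounded estimates cannot be told apart from them. Of the listed symbols, 26 are dates and 2 are repeated.

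The counts were tested with edgeR 4.0.16 in R 4.3.3 (filterByExpr with minimum count 10, TMM, factors 0.984 to 1.03). The quasi-likelihood test used 1 mean per line over all 9 libraries, and Benjamini-Hochberg adjustment ran over all 13508 tested genes, with an adjusted p under 0.05 as the threshold. Fold values are ratios of mean CPM. Where a line had 3 reads or fewer in every library, summed normalized counts were compared with a 95% exact interval that covers counting error only. Thbd and Selp were not tested in comparisons with HD-homo. The labels name no separate cultures, so p values measure the spread between these libraries, which may be technical. All pairs of replicates differed by more than counting error.

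The 9 genes and all lists were chosen with earlier results of these data known. From the related genes, the thrombin receptors, Plaur, Serpine2, Plg, Sele and the largest called increase and decrease per list and comparison are named. A few genes of the lists, and 1 ratio that used one, are not reported here. Counts below the rule's reach (Proc, F2, Fga, Fgb, Fgg, Selplg) were named after their values were seen, as were F5, F8 and the marker genes singled out. F5 and F8 also met the rule, as the largest increases among the clotting factors in HD-homo and in HD-het against control cells, respectively. Macrophage (2 of 8 passed), neuron (3 of 7), astrocyte (1 of 5) and mesenchymal (7 of 8) markers were also read, with sums of 2.52 to 6.26, 91.8 to 171, 0.620 to 17.8 and 4688 to 14938 CPM. Genes nearest in pattern were ranked on log2(CPM + 0.5), centred per gene.

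Positions and exon lengths came from GENCODE on GRCm38, matched by symbol for 97.1% of tested genes, and promoter windows from RefSeq. Of 50-base words, 0.162% of Tfpi and 0.542% of Vwf and 0 of the other 7 genes occurred in another gene. The edgeR fit was tested on simulated counts. These did not cover the ratios, permutation tests, counting intervals or promoter search, or folds as large as those of Thbd and Selp. Alternatives were DESeq2 size factors, library totals, the Wald test of DESeq2 1.42.0, no filter, 2 lines only, a replicate block, a prior count of 2, each library left out, other gene lengths and other measures of likeness.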

Additional observations from a re-analysis of the deposited data

Results flagged for a closer look

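Thbs1 was flagged because the HD lines differed from control cells in opposite directions, each past the threshold. The difference between the HD-homo and HD-het lines was itself tested by edgeR, with a log2 fold change of -2.60 (adjusted p = 2e-08), and HD-homo was lower in 3 of 3 libraries.

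The HD lines also lay on opposite sides of control cells for 4 related genes. F2rl2 differed by -2.46 on the log2 scale between the HD-homo and HD-het lines at 5 to 36 reads per library. No p is given for F2rl2 here, since only the HD-het libraries kept it in the test. Lrp1 differed by -1.11 (adjusted p = 1.3e-06, edgeR), Anxa2 by 0.80 (adjusted p = 6.7e-07) and Thbs2 by 1.77 (adjusted p = 5.2e-06). Groups of 3 libraries were not searched for single libraries that stand apart.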

How the results depend on the processing

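Of 351 alternative values for the fold changes of the 8 genes that passed the filter, 332 kept their direction and their side of the threshold, or moved by less than the spread between replicates, and none turned its direction. Plau in HD-het against control cells no longer passed with library totals only (0.18, adjusted p = 0.06) or with no filter (0.19, adjusted p = 0.055), and leaving out 1 library at a time gave 0.12 to 0.25. Tfpi in HD-homo against control cells gave 0.98 by the DESeq2 Wald test (adjusted p = 0.094) and 0.59 to 1.23 with 1 library left out. Because control and HD-het counts are so low, a prior count of 2 lowered the fitted log2 fold change of Thbd to 11.43 and 11.47 and that of Selp to 9.97 and 9.82 (against control and HD-het cells). With 1 library left out, the values were 12.16 to 12.60 and 12.22 to 13.19 for Thbd and 10.92 to 14.41 and 10.49 to 12.09 for Selp. The value of 14.41 is that without control replicate 1, which held the 2 control reads of Selp.

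For the ratios, differences near 0 changed sign with 1 library left out: -0.36 to 0.05 (F3 to Tfpi, HD-homo minus control), -0.05 to 0.36 (F3 to Tfpi, HD-homo minus HD-het) and -0.04 to 0.20 (Plau to Plaur, HD-homo minus control). The longest transcript as length rescales a ratio alike in all lines. It gave 0.951, 0.584 and 0.821 for Plat to Plau and 0.268, 0.313 and 0.280 for Plau to Plaur in control cells and the HD-het and HD-homo lines.

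The libraries share replicate numbers across lines. Deviations of same-numbered libraries correlated at 0.0226 to 0.245, not above 0.1 in every pair, so the numbers were not taken to pair the libraries, although each same-number correlation exceeded the mean for other numbers. With a replicate block, 8372 genes were called for HD-homo against control, 9160 for HD-het against control and 9938 for HD-homo against HD-het, and the block changed no call among the 6 tested genes other than Thbd and Selp. Depth limits Vwf, Tfpi and the low levels of Thbd and Selp, at 0 to 41 reads per library.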
